A study of Mus musculus with 30 samples.

Results

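Female microglia with 1 floxed copy of *Bin1* and the Cx3cr1-Cre allele (Het) were compared with female microglia labelled WT, in 9 of the 30 libraries of the series. The 9 libraries were chosen by their labels, as the 5 whose label joins Het with F and the 4 that join WT with F, and each carries the number of 1 mouse. Het mice were Bin1 wt/flox::Cx3Cr1-Cre+, and the WT mice were Bin1 wt/flox without Cre, so the floxed copy was present in both groups. The floxed allele came from the strain B6.129S6-Bin1tm2Gcp/J, and Cre was knocked into *Cx3cr1*, a gene that also serves as a marker of microglia. Het differed from WT in the Cre allele and in the loss of a *Bin1* copy together, and the effects of these cannot be told apart. RNA was taken, by the methods of the study, from CD11b+ CD45-medium cells sorted from the brains of 3 month-old mice, without cerebellum and olfactory bulbs. The sample records themselves give a protocol for cultured pup microglia and another library kit, and which description holds was not tested. Values are FPKM (fragments per kilobase of transcript, scaled to library size), so the read counts and counting error of each library are not given.

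BIN1 is an N-BAR protein that binds and bends lipid membranes and takes part in endocytosis and endosomal recycling. Its gene is a risk locus of late-onset Alzheimer's disease, and in the brain it is transcribed in microglia, oligodendrocytes and neurons. Microglia, the resident macrophages of the brain, hold a homeostatic program with *P2ry12*, *Tmem119* and *Cx3cr1* in the healthy tissue. Around amyloid or dying cells they take up a disease-associated program that includes *Cst7*, *Axl*, *Itgax* and *Clec7a*.

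The sorted cells carried the transcripts of microglia. Summed over 7 microglial markers (*P2ry12*, *Tmem119*, *Fcrls*, *Sall1*, *Siglech*, *Csf1r* and *Aif1*), the FPKM lay between 12890 and 14870 in Het and between 13550 and 14520 in WT. *Xist* was found in all 9 libraries and *Ddx3y*, a Y-linked gene, was at 0 in each. Relative depth was estimated from the commonest ratio between 2 libraries over genes of low FPKM, and set to 1 for the median library of the series. It was 0.892 to 1.06 in Het and 1.05 to 1.34 in WT. The library WT-F-0122 is the only one of the 9 with a number in the early range of the series. Markers of other cells varied between libraries. The summed choroid plexus markers were at 0.157 to 2.63 FPKM in Het and 0.85 to 205.4 in WT, and those of neutrophils at 0.0406 to 88.4 and 6.86 to 159. Border macrophage markers summed to 15.7, 13.3, 17.5 and 13.3 FPKM in Het-F-0205, Het-F-0206, Het-F-0208 and Het-F-0220, and to 38.0 in Het-F-0257. In WT the sum lay between 19.3 and 34.6 FPKM, so only Het-F-0257 reached into or above the WT range. All 8 of these markers had negative estimates, a count without a share over all genes beside it. Their median log2 fold change was -0.60, and -0.37 without Het-F-0206. At an unadjusted p below 0.05, 3 of 6 choroid plexus, 0 of 8 neutrophil and 2 of 8 border macrophage markers tested were lower in Het. Of all genes tested, 1.33% were lower at this level. The sums for monocytes, lymphocytes, astrocytes, oligodendrocytes, neurons and endothelial cells overlapped between the groups, and single members below that p were the B cell marker *Cd79a*, lower in Het, and the neuronal marker *Stmn2*, higher in Het. The T cell markers *Cd3e*, *Cd3g* and *Trac* were at 0 in all 9 libraries. In sorted bulk RNA, fewer cells of a type and less RNA per cell cannot be told apart, and the part of these other cells in the results was not tested.

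*Bin1* (ENSMUSG00000024381, chromosome 18, 32377230 to 32435737 on GRCm38) was checked first. Its FPKM was 152, 159, 152 and 164 in Het-F-0205, Het-F-0208, Het-F-0220 and Het-F-0257, and 42.7 in the library labelled Het-F-0206. In the 4 WT mice it was 252, 244, 244 and 271. All Het libraries were thus below all WT libraries, and 1 of them was far below the other Het. Female Homo mice (Bin1 flox/flox::Cx3Cr1-Cre+, n = 5) ranged from 39.5 to 43.3 FPKM, so that the library labelled Het-F-0206 sat within the Homo range. *Cx3cr1* (chromosome 9, 119901616 to 120069879) was between 1048 and 1243 FPKM in the same 4 Het mice, between 1988 and 2113 in WT and between 1094 and 1242 in Homo. In the library labelled Het-F-0206 it was at 13.9 FPKM, a level that no other female library approached. Its summed microglial markers, at 12890 FPKM, were the lowest of the 9 libraries, beside 13500 to 14870 in the other Het libraries. Therefore the comparison is given with and without this library, which is kept under its label.

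**Figure D1:**
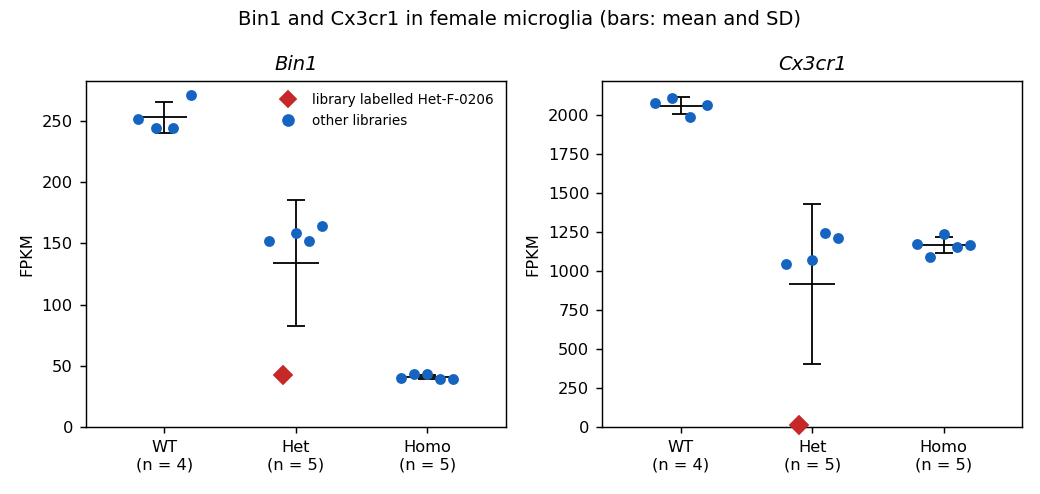
FPKM of *Bin1* and *Cx3cr1* (vertical axes) in each female library, by genotype (horizontal axis). Points are libraries, the diamond is the library labelled Het-F-0206, and bars are the mean and SD of each group. For *Bin1* the diamond lies at 42.7 with the Homo libraries, and for *Cx3cr1* it lies at 13.9, below all others.

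The log2 fold change of *Bin1* was -1.07 (standard error, SE, 0.28, adjusted p = 0.163 by limma) with all 5 Het libraries and -0.69 (SE 0.19, adjusted p = 0.414) with the library labelled Het-F-0206 left out. For *Cx3cr1* the values were -2.13 (adjusted p = 0.689) and -0.86 (adjusted p = 0.198). Neither gene passed in these fits of all 6 groups, although no Het library overlapped with WT for either. *Bin1* passed with array weights (-1.04, adjusted p = 0.0454) and without both this library and the male library labelled Het-M-0199 (-0.69, adjusted p = 0.00363). When the 4 remaining Het and 4 WT libraries were fitted alone, both genes passed. By comparison with the mean of the other 4 Het libraries, 53 of 8512 genes that averaged 5 FPKM or more differed more than 2-fold in the library labelled Het-F-0206, and 35 to 55 did so in each of the others. The number of deviating genes therefore did not set this library apart. The 10 genes by which it deviated most included *Cx3cr1* and *Bin1*. The first of them was *Pagr1a*, at 0.0003 FPKM in this library, 6.28 to 12.2 in the other Het and 5.75 to 10.9 in WT. Among the rest, several were pseudogenes or members of multicopy families whose FPKM also scattered among the other libraries.

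Het microglia had higher levels of a small set of genes, and no gene passed in the other direction, though some did so in alternative fits given below. A gene was called differentially expressed (DEG) when limma gave an adjusted p below 0.05, by Benjamini-Hochberg over all 16897 genes tested, and the fold change was above 1.5. Fold changes are on the scale of log2(FPKM + 0.1), which understates the change of genes with low FPKM. There were 22 DEGs, or 0.13% of the genes tested, and all 22 were raised in Het. Of these, 19 were protein-coding. At an unadjusted p below 0.05 (3.95% of all genes), 443 genes (2.62%) were higher and 225 (1.33%) lower in Het. These shares stand beside the counts of gene list members at that level. The median log2 fold change over all genes was 0. No share of positive estimates was counted over all genes, so counts of positive or negative estimates in a set of genes are a description. Without the library labelled Het-F-0206 there were 9 DEGs (0.0533%), all raised and all among the 22, and 397 genes (2.35%) were higher at an unadjusted p below 0.05. Those 9 were *Cst7*, *Chst1*, *Chst2*, *Sp100*, *Pdcd1*, *Rxrg*, *Etv4*, *Axl* and the pseudogene *Smt3h2-ps4*. The other 13 DEGs stayed positive without the library, with adjusted p between 0.0668 and 0.216 and unadjusted p between 3.95e-05 and 0.000361. In 21 of the 22 DEGs no Het library overlapped with WT, against 1.58% of all genes with Het higher, and the exception was *Smt3h2-ps4*. Without the library all 22 were free of overlap, against 2.21% of all genes. The DEGs were chosen on these same libraries, so that nothing is read from these last counts.

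**Figure D2:**
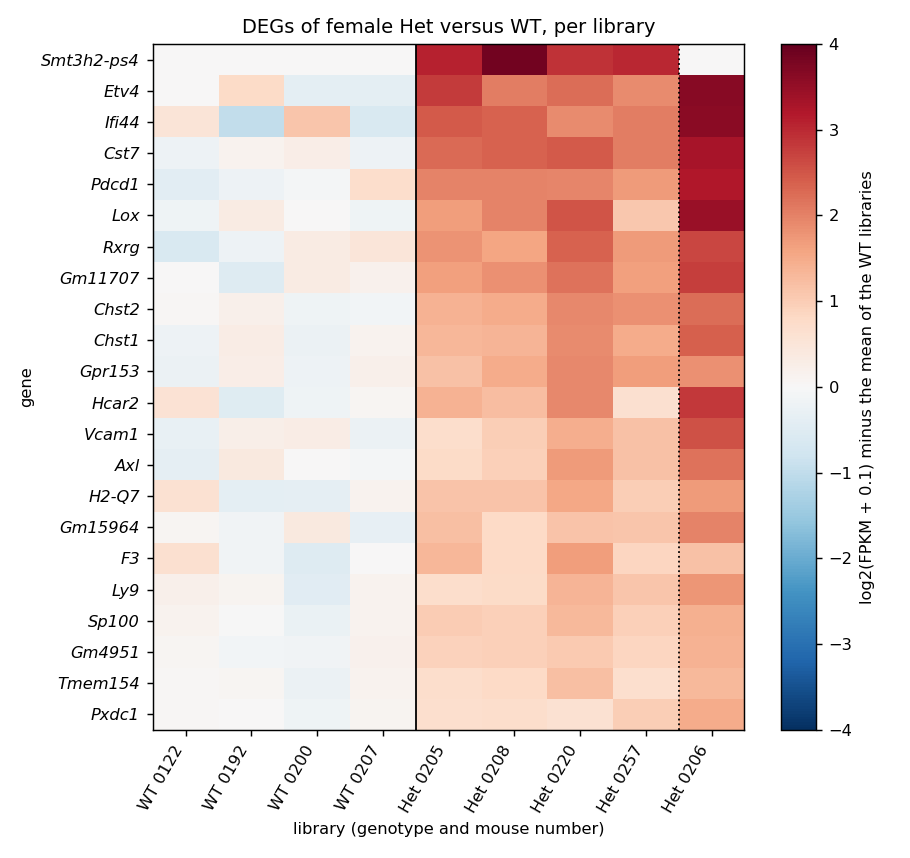
Heat map of the 22 DEGs (rows, ordered by log2 fold change) in the 4 WT and 5 Het libraries (columns). Colour is log2(FPKM + 0.1) minus the mean of the WT libraries, and the dotted line sets off the library labelled Het-F-0206, which was the highest of the Het libraries in 19 of the 22 rows.

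*Cst7* encodes cystatin F, an inhibitor of lysosomal cysteine proteases in immune cells, and had the smallest p of all genes. Its FPKM was 41.8, 44.2, 47.3 and 35.6 in Het-F-0205, Het-F-0208, Het-F-0220 and Het-F-0257 and 85.3 in the library labelled Het-F-0206, whereas the WT mice were at 7.48, 9.46, 10.4 and 7.36. Even the lowest Het library was well above the highest WT library. The log2 fold change was 2.48 (SE 0.22, adjusted p = 9.35e-08), a 5.57-fold rise, and 2.28 (adjusted p = 2.14e-07) with the library labelled Het-F-0206 left out. Of the 13 genes of the list of cystatins and cathepsins that were tested, *Cst7* alone reached an unadjusted p below 0.05. The median log2 fold change of the list was 0.0011, and its cathepsins gave 0 DEGs.

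Both sulfotransferases of the DEGs add sulfate to the sugars of keratan sulfate and related glycans. *Chst1*, which sulfates galactose, was at 33.1, 33.5, 48.5 and 36.5 FPKM in the 4 other Het mice, at 68.9 in the library labelled Het-F-0206, and at 11.2, 15.96, 11.2 and 14.4 in WT. *Chst2*, which sulfates N-acetylglucosamine, was at 1.23, 1.32, 1.82 and 1.69 FPKM, at 2.30, and at 0.423, 0.486, 0.354 and 0.373 in the same order. In both genes all Het libraries were above all WT libraries. The log2 fold changes were 1.68 (SE 0.18, adjusted p = 2.56e-06) for *Chst1* and 1.77 (SE 0.21, adjusted p = 7.71e-06) for *Chst2*, and 1.51 and 1.66 without the library labelled Het-F-0206. *Chst2* lies on chromosome 9 (95399292 to 95406722), the chromosome of the Cre allele. Of 13 genes tested from the list of sulfotransferases and keratan sulfate enzymes, these 2 were DEGs and *B3gnt7* was the only other with an unadjusted p below 0.05 (log2 fold change 0.94, adjusted p = 0.278, and 0.81 with the library left out). The median of the list was 0.12.

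*Pdcd1* encodes PD-1, an inhibitory receptor best known from T cells. Its FPKM was 11.8, 11.7, 11.5 and 9.61 in the 4 other Het mice, 27.5 in the library labelled Het-F-0206, and 2.15, 2.49, 2.75 and 4.73 in WT. The 4 other Het libraries lay close together, and the library labelled Het-F-0206 was at 2.46 times their mean. The log2 fold change was 2.16 (SE 0.26, adjusted p = 7.71e-06), and 1.91 (adjusted p = 1.74e-05) without it. *Ly9*, a receptor of the SLAM family on leukocytes, was the other DEG among 10 checkpoint and lymphocyte receptor genes tested, with a log2 fold change of 1.14 (adjusted p = 0.0146) that did not pass without the library (0.98, adjusted p = 0.094). *Cd274*, the PD-1 ligand PD-L1 (log2 fold change 0.56, adjusted p = 0.898), and *Tnfsf8*, the ligand of CD30 (1.44, adjusted p = 0.114), reached an unadjusted p below 0.05, and their values were 0.47 and 1.09 with the library left out. All 10 genes were positive, a count without a share over all genes beside it, and their median was 0.28. The levels of *Pdcd1* stood beside T cell markers at 0.

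Among regulators of transcription, *Sp100*, *Rxrg* and *Etv4* were DEGs with and without the library labelled Het-F-0206. *Sp100*, a component of PML nuclear bodies that is also induced by interferon, was at 23.6 to 32.9 FPKM in the 5 Het and 10.1 to 13.5 in the 4 WT libraries, a log2 fold change of 1.13 (SE 0.13, adjusted p = 4.8e-06), and of 1.06 without the library. *Rxrg*, a retinoid X receptor and partner of other nuclear receptors, was at 2.64 to 5.75 and 0.5 to 1.19 FPKM, a log2 fold change of 2.03 (SE 0.29, adjusted p = 0.00031), and of 1.87 without the library. *Etv4*, an ETS family factor, was at 0.382 to 1.54 FPKM in Het and at 0 to 0.124 in WT, where 2 of 4 libraries were listed at 0, so that its fold change depends on the pseudocount. Of 14 genes tested from the list of LXR and RXR receptors and their target genes, *Rxrg* alone reached an unadjusted p below 0.05, and the median of the list was 0.01.

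Promoters of the 3 DEGs with the smallest adjusted p are shown to place these genes, from 250 bases before to 50 after the RefSeq start on GRCm38.p6. Capitals mark GGAAGT, a core bound by ETS factors such as PU.1 and ETV4, on either strand.
*Cst7*, chromosome 2, 150570165 to 150570464, plus strand: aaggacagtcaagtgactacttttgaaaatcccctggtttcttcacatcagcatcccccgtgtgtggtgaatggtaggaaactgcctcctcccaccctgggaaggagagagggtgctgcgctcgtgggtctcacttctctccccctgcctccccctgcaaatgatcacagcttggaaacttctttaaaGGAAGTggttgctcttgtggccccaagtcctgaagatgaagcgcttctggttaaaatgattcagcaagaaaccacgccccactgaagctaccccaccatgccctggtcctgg
*Chst1*, chromosome 2, 92600867 to 92601166, plus strand: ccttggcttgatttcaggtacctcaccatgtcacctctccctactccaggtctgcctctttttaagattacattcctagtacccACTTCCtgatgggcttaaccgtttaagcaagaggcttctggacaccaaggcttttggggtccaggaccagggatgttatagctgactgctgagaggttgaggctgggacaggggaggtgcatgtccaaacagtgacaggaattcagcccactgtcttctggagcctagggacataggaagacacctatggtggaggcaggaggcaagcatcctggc
*Sp100*, chromosome 1, 85649738 to 85650037, plus strand, the first of 2 listed starts: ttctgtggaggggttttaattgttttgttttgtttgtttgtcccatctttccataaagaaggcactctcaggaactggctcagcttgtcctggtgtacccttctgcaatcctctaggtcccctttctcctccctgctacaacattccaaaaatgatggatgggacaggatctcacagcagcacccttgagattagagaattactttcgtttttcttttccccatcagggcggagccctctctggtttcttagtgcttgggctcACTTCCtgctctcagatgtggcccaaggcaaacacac
The core was added as a motif after these sequences had been read, and it occurs in 23.8% of the 32851 promoters of the table. A promoter was listed for 13 of the 22 DEGs, and 5 of the 13 held the core. The longer PU.1 box GAGGAAGT (3.2% of all promoters) and the core of the interferon-stimulated response element (3.44%) occurred in 0 of the 13. The nuclear receptor half-site AGGTCA (16.3%) was found in *Pdcd1*, *Rxrg* and *H2-Q7*, the AP-1 site TGACTCA (5.2%) in *F3*, and TATAAA (13.6%) in *Pxdc1* and *F3*. Both strands were searched, and GGAAGT lies within the PU.1 box. These matches describe the letters of the windows, and nothing about binding follows from them.

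*Axl*, a receptor tyrosine kinase that recognizes dying cells through its ligand Gas6, was at 10.2, 11.7, 19.5 and 13.4 FPKM in the 4 other Het mice, at 26.8 in the library labelled Het-F-0206, and at 4.63, 7.81, 6.05 and 5.62 in WT. The Het libraries spread more widely than for *Cst7*, yet none reached into WT. The log2 fold change was 1.35 (SE 0.24, adjusted p = 0.00819), and 1.15 (adjusted p = 0.044) with the library labelled Het-F-0206 left out. *Cst7* and *Axl* were the 2 DEGs among 24 disease-associated microglia genes tested. A further 6 had an unadjusted p below 0.05, all higher in Het, among them *Itgax*, the integrin CD11c (log2 fold change 0.91, adjusted p = 0.345), *Csf1* (0.74, adjusted p = 0.278) and *Ch25h* (1.41, adjusted p = 0.268). When the library labelled Het-F-0206 was left out, these 3 log2 fold changes were 0.95, 0.63 and 1.11. The receptor *Clec7a* had a log2 fold change of 0.63 and 0.40 without the library. Members nearer to 0 included *Lpl* (0.01), *Spp1* (0.26) and *Cd9* (0.28). Of the 24 genes 18 were positive, and the negative ones included *Igf1* (-0.26), *Ccl6* (-0.09) and *Tyrobp* (-0.07). The median of the list was 0.24, and 0.17 without the library labelled Het-F-0206, beside a median over all genes of 0.0020 in the latter fit.

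Genes of the homeostatic program gave no DEG. Of 20 homeostatic microglia genes tested, *Cx3cr1* alone had an unadjusted p below 0.05, with a list median of -0.02. *P2ry12*, a purinergic receptor, had a mean FPKM of 4639 ± 185 (SD, n = 4) among WT and of 4473 ± 273 (SD, n = 5) among Het libraries, and *Tmem119* of 2263 ± 144 and 2320 ± 142. *Trem2*, the lipid receptor through which microglia enter the disease-associated program, had a log2 fold change of 0.11 (SE 0.14). It was 0.30 (SE 0.21) for *Apoe*.

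Genes of the immune response to interferon and of antigen presentation gave 3 DEGs. *Ifi44*, an interferon-induced gene of low level, was at 0.644 to 2.32 FPKM in Het and 0 to 0.328 in WT, a log2 fold change of 2.48 (SE 0.49, adjusted p = 0.0194) that did not pass without the library labelled Het-F-0206 (2.20, adjusted p = 0.116). With *Sp100* it was 1 of 2 DEGs among 29 type I interferon response genes tested. Of the 29, 6 were higher in Het at an unadjusted p below 0.05, against 2.62% of all genes. The number of positive estimates was 26, a count without a share over all genes beside it. The list median was 0.30, and 0.23 without the library. *H2-Q7*, a non-classical MHC class I gene, was at 7.34 to 12.3 FPKM in Het and 2.76 to 5.58 in WT (log2 fold change 1.30, adjusted p = 0.0225), and 1.20 without the library (adjusted p = 0.12). Its near-identical neighbour *H2-Q6* had a log2 fold change of 1.38 (adjusted p = 0.0647) and of 1.28 without the library, and reads of the pair may have been divided between them. The classical genes *H2-K1* (0.56, adjusted p = 0.168) and *H2-D1* (0.48, adjusted p = 0.73) had Het libraries above all WT libraries without passing. That pattern was found in 1.58% of all genes. All 17 MHC class I and loading genes tested were positive, also a count without such a share. Their median was 0.40, and 0.28 without the library. By contrast, of 7 MHC class II genes 0 had an unadjusted p below 0.05.

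*Vcam1*, an adhesion molecule induced by NF-kB, was at 6.70 to 11.5 FPKM in the 4 other Het mice, at 24.1 in the library labelled Het-F-0206 and at 3.30 to 5.09 in WT. Its log2 fold change of 1.37 (adjusted p = 0.0325) fell to 1.08 (adjusted p = 0.143) without that library. *Vcam1* was the DEG among 21 NF-kB and cytokine genes tested. At an unadjusted p below 0.05, 7 of the 21 were higher with all Het libraries and 4 without that one. Of all genes tested, 2.62% and 2.35% were higher at this level. *Il1b*, the cytokine interleukin-1 beta, was at 4.08 to 7.25 FPKM in Het and 1.77 to 3.72 in WT (log2 fold change 1.00, adjusted p = 0.278, and 0.92 without the library). Of 20 immediate early genes, which respond to tissue dissociation, 0 had an unadjusted p below 0.05.

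The remaining DEGs belonged to other families. *Hcar2*, the receptor of beta-hydroxybutyrate and niacin, was at 10.3, 9.13, 15.0 and 6.14 FPKM in the 4 other Het mice, at 27.8 in the library labelled Het-F-0206 and at 2.74 to 5.85 in WT, a log2 fold change of 1.60 and of 1.30 (adjusted p = 0.0668) without it. *Lox*, the enzyme that crosslinks collagen and elastin, was at 1.71, 2.13, 3.14 and 1.10 FPKM, at 6.10 in the library labelled Het-F-0206, and at 0.401 to 0.608 in WT, a log2 fold change of 2.14 and of 1.82 (adjusted p = 0.128) without it. In both genes Het-F-0257 came nearest to WT. *Gpr153*, an orphan G protein-coupled receptor, and *F3*, tissue factor, were the 2 protein-coding DEGs whose highest Het library was not Het-F-0206, and their log2 fold changes were 1.61 and 1.16 with it and 1.56 and 1.16 without it. Smaller changes were found in *Pxdc1* (0.88), which encodes a PX domain protein, in the transmembrane protein gene *Tmem154* (0.93) and in *Gm4951* (1.03). Without the library labelled Het-F-0206 these were 0.74 (adjusted p = 0.094), 0.84 (adjusted p = 0.094) and 0.94 (adjusted p = 0.216), and none passed. The lincRNA *Gm11707* had a log2 fold change of 2.01, and of 1.82 (adjusted p = 0.116) without it. The antisense transcript *Gm15964* had one of 1.24, and of 1.06 (adjusted p = 0.116) without it. Its span overlaps *Gart* and *Dnajc28* on the other strand. The study's methods name Nextera XT libraries, which keep no strand, and the sample records a stranded TruSeq kit, so that reads of these genes may not have been told apart.

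*Smt3h2-ps4*, a processed pseudogene on chromosome 1, was listed at 0.746, 1.35, 0.641 and 0.717 FPKM in the 4 other Het mice and at 0 in the library labelled Het-F-0206, in all WT and in all female Homo and male Het and WT libraries. A level listed at 0 can reflect how reads were divided between near-identical copies, so no fold is given for it.

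Of transcripts lower in Het, none was a DEG in either fit. *Sema6d*, a transmembrane semaphorin that signals through plexins, was nearest, at 2.48, 3.79, 2.24 and 2.32 FPKM in the 4 other Het mice, 1.52 in the library labelled Het-F-0206 and 4.92, 6.18, 4.98 and 4.43 in WT. All Het libraries were below all WT libraries, a pattern found in 0.633% of all genes. The log2 fold change was -1.08 (SE 0.24, adjusted p = 0.0558), and -0.92 (adjusted p = 0.254) with the library labelled Het-F-0206 left out. *Sema6d* passed in 6 of 22 alternative fits, and its adjusted p by limma ranged from 0.016 to 0.514 over the fits. The 6 used a pseudocount of 1, a mean FPKM of at least 1, no scaling, array weights, the number range as a covariate, or left out Het-F-0208. *Adgre4*, an adhesion receptor of macrophages, was at 0.719 to 1.55 FPKM in Het and 1.51 to 3.45 in WT and overlapped between the groups (log2 fold change -1.11, adjusted p = 0.184, and -1.06 without the library). The groups closest to the function of BIN1 gave 0 DEGs. Of 26 N-BAR and clathrin endocytosis genes tested, *Bin1* itself was the only one with an unadjusted p below 0.05, and the list median was 0.01. Among 24 ESCRT and vesicle release genes there was 1, *Vps4a*, with a log2 fold change of -0.19 (0 such genes without the library), and among 22 cytosolic chaperones and 21 Alzheimer risk genes other than *Bin1* there were 0.

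**Figure D3:**
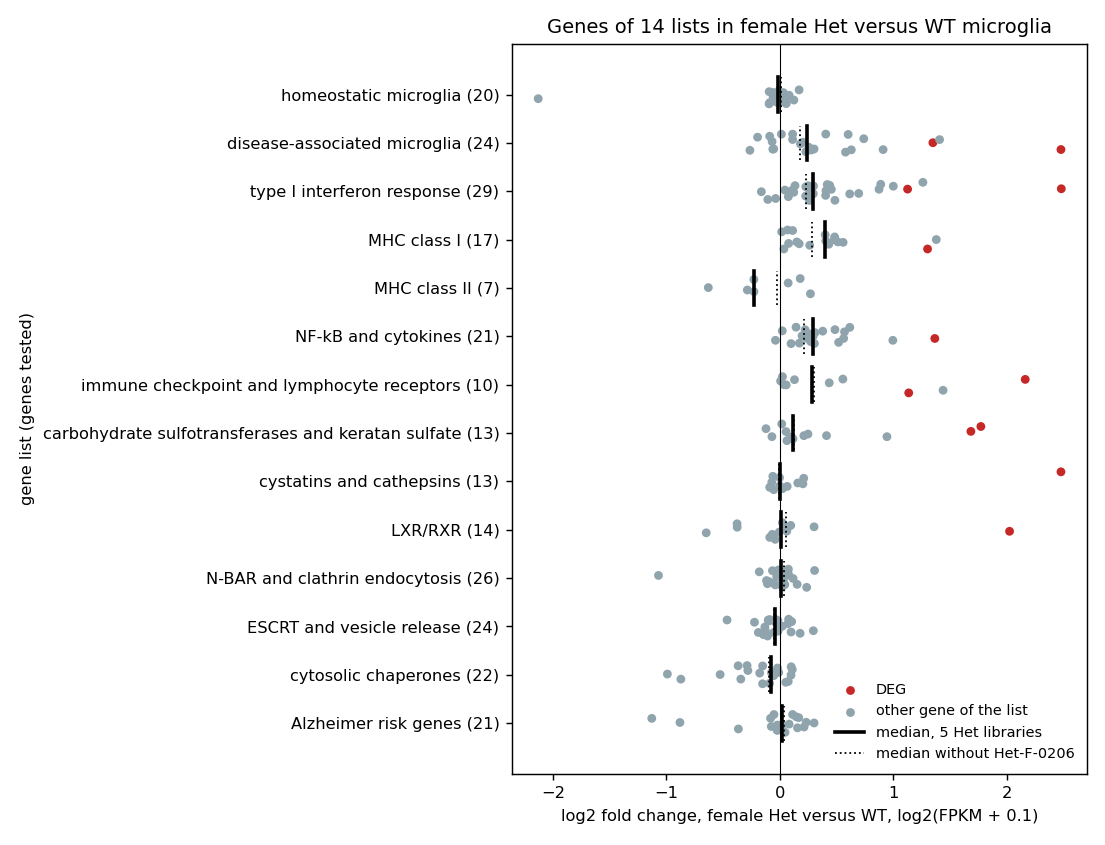
Log2 fold change of female Het against WT (horizontal axis, on the log2(FPKM + 0.1) scale) for each tested gene of 14 lists (rows, number of genes in brackets). Points in red are DEGs, solid lines are list medians with all 5 Het libraries and dotted lines medians without the library labelled Het-F-0206. Red points lie far to the right of the medians of their lists, *Cx3cr1* and *Bin1* lie far to the left of theirs, and the lists for interferon, MHC class I, NF-kB, immune checkpoint and disease-associated genes have medians from 0.24 to 0.40.

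The library labelled Het-F-0206 was then described across the DEGs. It was the highest of the 5 Het libraries in 19 of the 22 DEGs, against 22% of all genes tested, and it entered the choice of these genes. Of the 9 DEGs chosen without it, it was the highest in 8. In the 21 genes raised in male Het mice, which were chosen on other libraries, it was the highest of the female Het in 17. It also lay above every female Homo library in 21 of the 22 DEGs, which were called with it among the Het libraries. No share over all genes was taken for this count, so nothing is read from it. For those 21 male genes, the median log2 level minus the female WT mean was 1.70 in this library, 0.956 to 1.41 in the other Het libraries and 0.918 to 1.11 in the Homo libraries. The male library labelled Het-M-0199 offers a partial comparison, since its *Bin1* was at 51.8 FPKM and its *Cx3cr1* at 1112. It was the highest of the 6 male Het libraries in 2 of the 22 DEGs, against 11.7% of all genes. The male library lay within the range of the other 5 in 19, a count without a share over all genes beside it. These 2 Het libraries of low *Bin1* are single libraries that also differ in *Cx3cr1* (13.9 FPKM in Het-F-0206 and 1112 in Het-M-0199). Nothing is read from them about the level of *Bin1*.

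To ask whether the same genes were raised in the other sex, male Het mice (n = 6) were compared with male WT mice (n = 5). These share no library with the females. Het-M-0100 and Het-M-0108 have numbers in the early range, and all 5 male WT libraries are late. Number range and genotype are therefore partly confounded in males. Of the 22 female DEGs, 13 were also DEGs in males, where 0.124% of all genes tested were raised DEGs. They made up 59.1% of the female list and 61.9% of the 21 raised male genes. In males 21 of the 22 were positive, with a median log2 fold change of 1.01, and 20 had an unadjusted p below 0.05, against 7.47% of all genes that were higher in males at this level. *Cst7* was at 31.4 to 61.2 FPKM in male Het and 7.14 to 13.1 in male WT, a log2 fold change of 2.02 beside 2.48 in females. *Lox* (2.45 and 2.14) and *Hcar2* (2.04 and 1.60) had larger estimates in males, and *Chst2* (0.97 and 1.77) and *Axl* (0.53 and 1.35) in females. The 9 female DEGs that were no male DEGs comprised *Etv4*, *Smt3h2-ps4*, *Axl*, *Pxdc1*, *Ifi44*, *Gm11707*, *Gm15964*, *Vcam1* and *F3*.

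**Figure D4:**
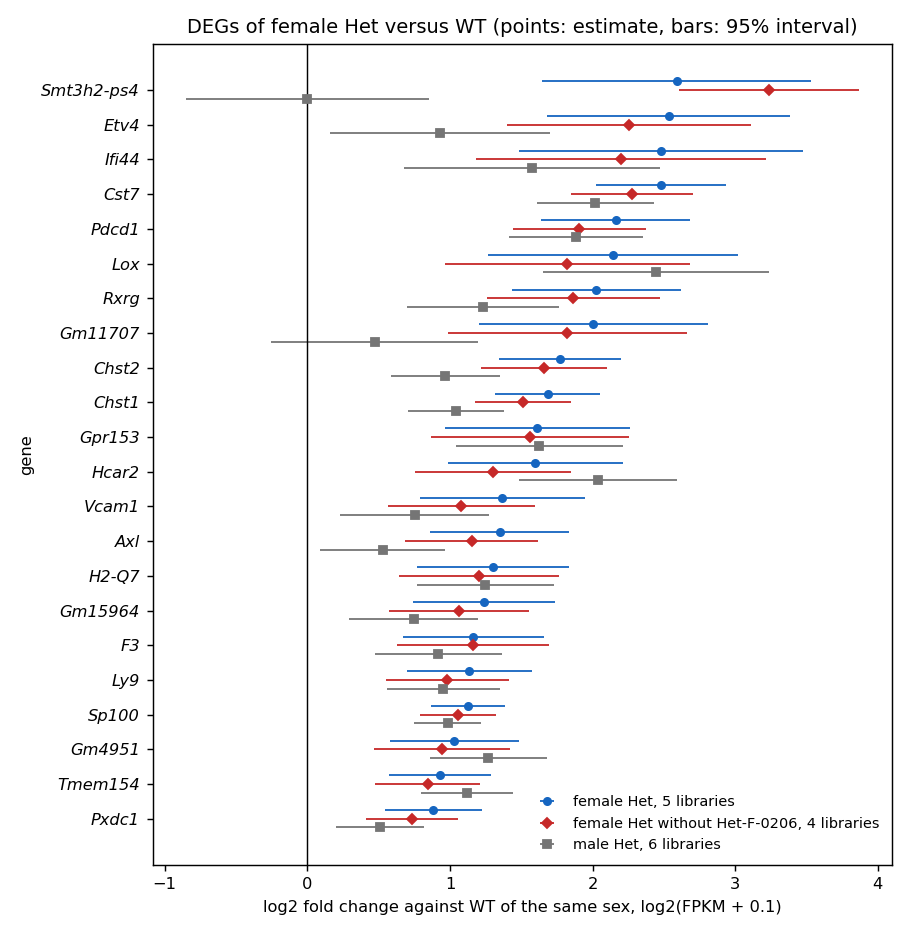
Log2 fold change of the 22 DEGs against WT of the same sex (horizontal axis) in female Het mice, in female Het mice without the library labelled Het-F-0206, and in male Het mice. Points are limma estimates and bars 95% intervals. Apart from *Smt3h2-ps4*, the estimates lie to the right of 0 in all 3 comparisons, and leaving out the library moved 20 of the 22 female estimates to the left.

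A test of the interaction asked whether the change of Het microglia differed between the sexes. It passed an adjusted p of 0.05 for 0 of 16897 genes (smallest adjusted p = 0.86), with 766 (4.53%) at an unadjusted p below 0.05. The count that passed was also 0 with the number range as a covariate and with late numbers only. Among the 22 DEGs, 6 had an unadjusted p below 0.05 (*Chst1*, *Chst2*, *Etv4*, *Smt3h2-ps4*, *Axl* and *Gm11707*), all with the larger change in females, on whose libraries they were chosen. The difference for *Chst2* was 0.80 on the log2 scale (95% interval 0.23 to 1.38), and for *Cst7* it was 0.46 (-0.16 to 1.07). Without the library labelled Het-F-0206 there was 1 gene (0.00592%) with an adjusted p below 0.05, *Smt3h2-ps4*. On the repressed side, the 5 DEGs lower in male Het (0.0296% of the genes tested; *Zfp36l1*, *Prlr*, *Hsp90ab1*, *Bin1* and *Cox8b*, named after their values were seen) were all negative in female Het, and *Bin1* alone had an unadjusted p below 0.05.

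Female Homo mice were set beside the Het mice to ask how the second copy of *Bin1* bore on the DEGs. The Homo and Het comparisons with WT share their WT libraries, so an overlap of their DEGs is not counted. Values are given side by side, followed by the direct contrast of Homo and Het. *Cst7* was at 43.2 ± 5.68 FPKM (SD, n = 5) in Homo and at 50.9 ± 19.7 (SD, n = 5) in Het, or 42.2 ± 4.95 (SD, n = 4) without the library labelled Het-F-0206. *Pdcd1* was at 11.4 ± 2.24, 14.4 ± 7.37 and 11.2 ± 1.04 FPKM in the same order. In both genes the Homo mean was near that of the 4 other Het libraries. In the direct contrast of Homo and Het, 2 of all genes tested (0.0118%) were DEGs, *Bin1* and *Smt3h2-ps4*, both with and without that library. The 22 DEGs were chosen for high levels in these Het libraries, which favours lower values in Homo, so the counts are a description. At an unadjusted p below 0.05, 5 of the 22 were lower in Homo (*Smt3h2-ps4*, *Axl*, *Ly9*, *Gm11707* and *Gm15964*), where 2.06% of all genes differed in either direction. With the library left out there were 3 (*Smt3h2-ps4*, *Axl* and *Gm15964*), where 1.98% of all genes did. *Axl* was at 9.36 ± 1.34 FPKM in Homo and 16.3 ± 6.87 in Het, a difference of -0.71 on the log2 scale (95% interval -1.17 to -0.25), and of -0.52 (-0.96 to -0.07) without the library. For *Cst7* the difference was -0.17 (95% interval -0.60 to 0.26), and 0.03 (-0.38 to 0.43) without it.

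**Figure D5:**
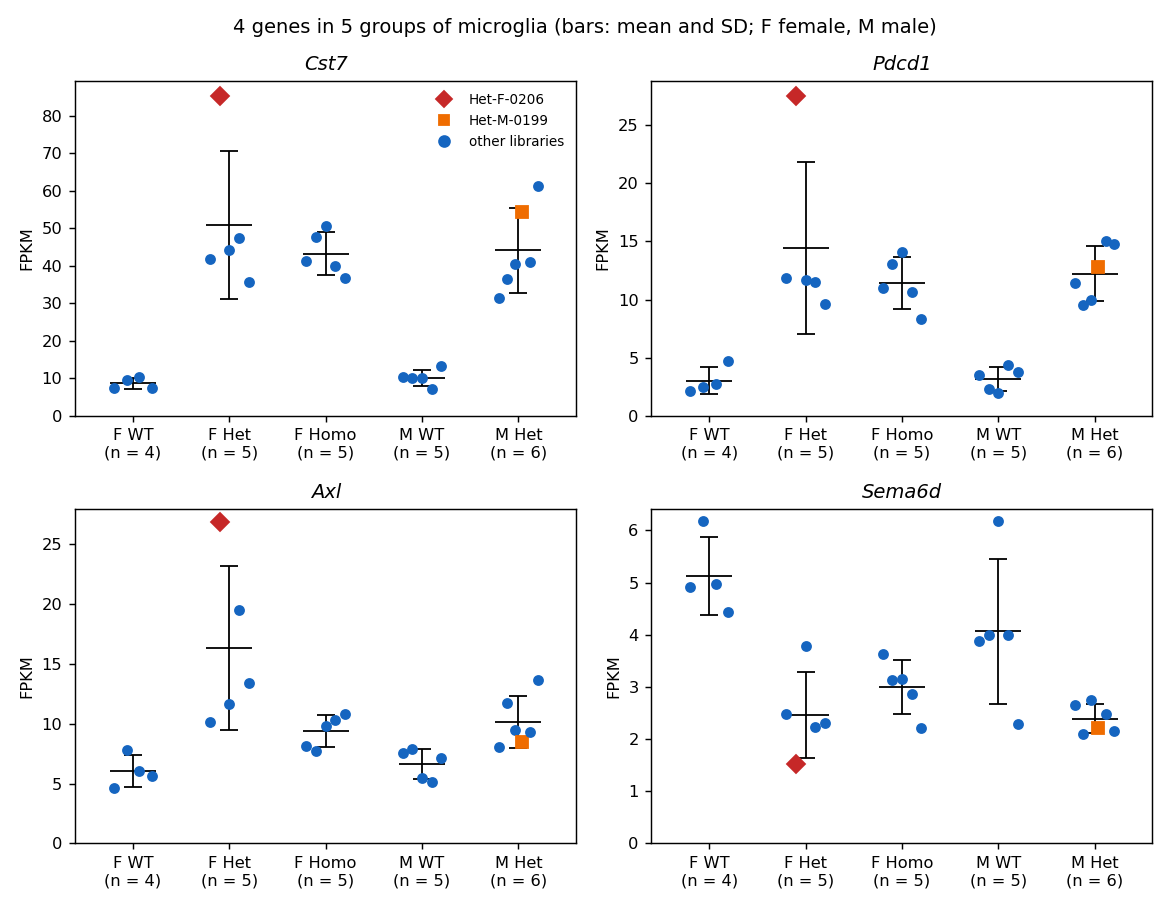
FPKM of *Cst7*, *Pdcd1*, *Axl* and *Sema6d* (vertical axes) in female WT, Het and Homo and male WT and Het libraries (horizontal axis). Points are libraries, the diamond is the library labelled Het-F-0206, the square the library labelled Het-M-0199, and bars the mean and SD. The diamond is the highest point for *Cst7*, *Pdcd1* and *Axl* and the lowest for *Sema6d*, whereas the square lies among the other male Het libraries.

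The calls depended on single libraries beyond Het-F-0206. When each of the 9 libraries was omitted in turn, the number of DEGs ranged from 9 to 31, with 12 without Het-F-0220, 11 without WT-F-0192 or WT-F-0200, 13 without WT-F-0122 or WT-F-0207, and 23 to 31 without Het-F-0205, Het-F-0208 or Het-F-0257. *Cst7*, *Chst1*, *Chst2*, *Sp100*, *Pdcd1*, *Rxrg*, *Etv4* and *Smt3h2-ps4* were called in all 9. *Cst7* and *Sp100* were the 2 also called under all 10 other settings.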

How the data were processed

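Per the methods of the study, alignment to mm10 was done with OSA4 and quantification with RSEM, and FPKM of 47643 genes were deposited by the authors. Those values, 4 to 6 libraries for each of 6 groups, were used here as deposited, and 6 columns that match no listed sample were not used. The authors' DESeq2 fit needs read counts, which were not analysed here. Scaling between libraries used the median of ratios (genes averaging 1 FPKM or more). After adding 0.1, log2 values were compared for the 16897 genes whose mean over the 30 libraries reached 0.1 FPKM, with R 4.3.3 and limma 3.58.1 in a fit of all 6 groups with an intensity trend. p-values were adjusted by Benjamini-Hochberg over all genes tested, and intervals use the moderated degrees of freedom. The fit was repeated without the library labelled Het-F-0206. All DEGs, label checks, *Sema6d*, *Adgre4* and members of gene lists were named, and others where the text says so. The members and lists were chosen with earlier results of these data known. The lists of microglial markers and homeostatic genes are given without 1 gene that is not reported here. Positions are from GENCODE M21 and promoters from RefSeq. Alternatives were other pseudocounts (0.01 and 1), filters and scalings, array weights, the groups alone, mouse number range, and leaving out each library. On data simulated for this comparison over 16897 genes, 58% of 100 genes changed 2-fold and 80% of 100 changed 4-fold were recovered. There were 3 false calls among 141. The simulated noise was normal and independent, with a single SD per gene shared by all groups and no deviant library. These shares therefore give no error rate for the calls in the data. Python 3.11.15 was used for summaries.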

Additional observations from a re-analysis of the deposited data

Results flagged for a closer look

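In 74 groups of 4 or 5 libraries, for single genes and summed markers, 10 values stood far from the rest of their group. The measure was the gap between the extreme library and its neighbour, for which chance gives about 1 in 20. The DEGs among them were called with the library labelled Het-F-0206 included, and its *Bin1* and *Cx3cr1* were known beforehand. The 10 values are therefore not read against that share. Of these, 7 belonged to the library labelled Het-F-0206. It was the highest Het library for *Cst7* (85.3 FPKM), *Pdcd1* (27.5), *Ifi44* (2.32), *Gm15964* (7.42) and *Vcam1* (24.1), and the lowest for *Bin1* (42.7) and *Cx3cr1* (13.9). The other 3 were *Ly9*, lowest in WT-F-0200 at 10.7 FPKM, the summed border macrophage markers, highest in Het-F-0257 at 38.0 FPKM, and the summed choroid plexus markers, highest in WT-F-0192 at 205.4 FPKM. The genotype of these mice beyond their labels was not tested.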

How the results depend on the processing

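With 4 or 5 libraries a group, the number of DEGs moved with the fit more than the estimates did, and all 22 DEGs kept a positive sign in every alternative in which they were tested. Leaving out each library in turn gave 9 to 31 DEGs, 9 to 30 of them raised and 0 to 1 repressed, and 0 to 1 genes in the interaction of sex with genotype. Without the library labelled Het-F-0206, 14 of the 27 single genes followed no longer passed, namely 13 DEGs and *Scarf2*. The 27 also hold *Bin1*, *Cx3cr1*, *Sema6d* and *Adgre4*, which had not passed with it. Array weights gave 63 DEGs, 57 raised and 6 repressed. The Het and WT groups alone gave 6 DEGs, 4 raised and 2 repressed, with 2 of the 22 among them. Late mouse numbers only, which leaves out WT-F-0122, gave 12, all 12 raised. There was 1 repressed gene with a pseudocount of 1, a mean FPKM of at least 1, no filter, no scaling, or the number range as a covariate. It was *Sema6d* in each of these except the fit with no filter. The following were chosen after seeing the data. The groups alone without the library labelled Het-F-0206 gave 12 DEGs, 7 raised and 5 repressed. Late numbers without that library gave 6, all 6 raised, and 1 gene in the interaction, and leaving out both Het libraries of low *Bin1* gave 9, 8 raised and 1 repressed, and 1 gene in the interaction. The cause was not tested. The study describes the WT mice as littermates, but the labels give no litter, so no analysis paired by litter was possible.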

Other observations

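*Scarf2*, a scavenger receptor family member, passed an adjusted p of 0.05 without reaching the fold threshold. Its mean FPKM was 3.87 ± 0.26 (SD, n = 4) among WT and 5.78 ± 0.34 (SD, n = 5) among Het libraries, and limma gave a log2 difference of 0.56 (adjusted p = 0.0318), beside 0.55 in male Het mice. Without the library labelled Het-F-0206 it was 0.54 (adjusted p = 0.128) and no longer passed. The lysozyme gene *Lyz2*, chosen after its values were seen as a male Het DEG, had a log2 fold change of 0.58 in females (adjusted p = 0.691), 0.44 without that library, and 0.85 in males. The chemokine receptor *Ccr1*, also chosen after its values were seen, was at 42.0 FPKM in the library labelled Het-F-0206 and at 8.28, 12.2, 12.4 and 13.9 in the other Het libraries, beside 8.35 to 13.2 in WT.

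In further gene families, 0 of 14 semaphorins and plexins, 0 of 8 adhesion receptors and 0 of 15 TGF-beta signalling genes were DEGs, with list medians of 0.02, 0.13 and 0.04.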
